A study of Homo sapiens with 2 samples.

Results

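A set of 10 receptor genes that guide B cells through lymphoid tissue was examined in 2 untreated human diffuse large B cell lymphoma lines, SUDHL6 and HT. The genes were chosen by name: CXCR4, CXCR5, CXCR3, CCR6, CCR7, S1PR1, S1PR2, S1PR4, GPR183 and P2RY8. A gene took its value from a probe set that the array's annotation assigns to that gene alone, and 9 of the 10 genes had such a probe set, of 14232 genes in all; the expression of P2RY8 was not analysed here. On an Affymetrix exon array, probes spread over a gene's exons are combined into probe set values. Total RNA was used from cells kept in RPMI medium with fetal bovine serum and antibiotics, without any perturbation, and the series title ties the study to inhibition of PRC2, the Polycomb histone methyltransferase, in lymphoma. Each line gave 1 array, so each value is a single measurement, no spread between cultures exists and no difference was tested.

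The receptors all couple to heterotrimeric G proteins and steer cells along, or hold them within, gradients of chemokines or lipids. CXCR5 draws B cells into follicles, CCR7 draws them towards the T zone, GPR183 to the outer follicle, and CXCR4 into the dark zone of the germinal centre and the bone marrow niche. S1PR1 drives exit into blood and lymph, whereas S1PR2 and P2RY8 confine germinal centre B cells through GNA13. Diffuse large B cell lymphoma arises from mature B cells, many of them germinal centre cells.

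Values are log2 expression after RMA, which corrects background, normalizes arrays and summarises probes. A dim level was set for each line at the 95th percentile of 225 olfactory receptor genes, assumed to be unused in lymphoma: 3.81 in SUDHL6 and 4.11 in HT. Genes were counted as different when the log2 values differed by at least 1, provided that the brighter line reached its dim level. Over all 14232 genes this held for 8.12%, 3.5% higher in SUDHL6 and 4.62% higher in HT. Differences of the olfactory receptor genes lay between -1.03 and 1.26 in their central 95%, the nearest available measure of error for dim genes, and 17 of the 225 differed by at least 1. Of genes that reached the dim level, 12.3% were counted as different.

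The labelled cell type was set against marker genes. All 12 measured B cell markers reached the dim level in the brighter line, 2 counted as higher in SUDHL6 and 3 in HT, with a median difference of -0.42. The surface marker MS4A1 stood at 11.33 in SUDHL6 and 8.75 in HT and CD72 at 5.92 and 3.76, the latter below the dim level in HT. VPREB3 stood at 7.45 and 10.15, and the transcription factor gene EBF1 at 6.54 and 8.18. Of 11 T cell markers, 5 reached the dim level and 0 were counted as different, with LCK at 5.65 and 6.62 and CD7 at 5.49 and 5.73, while CD3D, CD3E and CD3G of the T cell receptor complex were dim in each line. Of 10 fibroblast and endothelial markers, 4 reached the dim level and 2 were counted as higher in HT, the matrix genes LUM (6.22 against 2.38) and DCN (5.05 against 2.09). The NK cell, myeloid, erythroid and platelet, and epithelial lists had 0 genes counted as different. Some of their genes reached the dim level all the same: 2 of 7, 3 of 10, 3 of 5 and 3 of 6, in that order. The epithelial keratin gene KRT8 stood at 8.27 in SUDHL6 and 8.12 in HT, and KRT14 at 5.42 and 6.11.

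CXCR4, the receptor for CXCL12, was the only one of the 9 receptor genes counted as different. It was at 8.81 in SUDHL6 and 4.05 in HT, a log2 difference of 4.76. The HT value lay just under the dim level, by 0.06, so CXCR4 was at least 25.9-fold higher in SUDHL6 when the fold is taken against that level. In bulk RNA, fewer expressing cells and less RNA per cell cannot be told apart. A share of 11.1% of the receptor genes, 1 of 9, was thus counted as different, beside 8.12% of all genes. Ordered from the highest difference down, CXCR4 took rank 16 of all 14232 genes. The genes next to it in that order among those reaching the dim level were LRRN3 (5.07) and KYNU (4.84) above it and FAM9C (4.64) and OR13A1 (4.61) below it. OR13A1 is itself an olfactory receptor gene of the 225, at 6.84 in SUDHL6 and 2.23 in HT, so not every gene of that family was dim. With 2 arrays, likeness means only a similar difference.

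**Figure D1:**
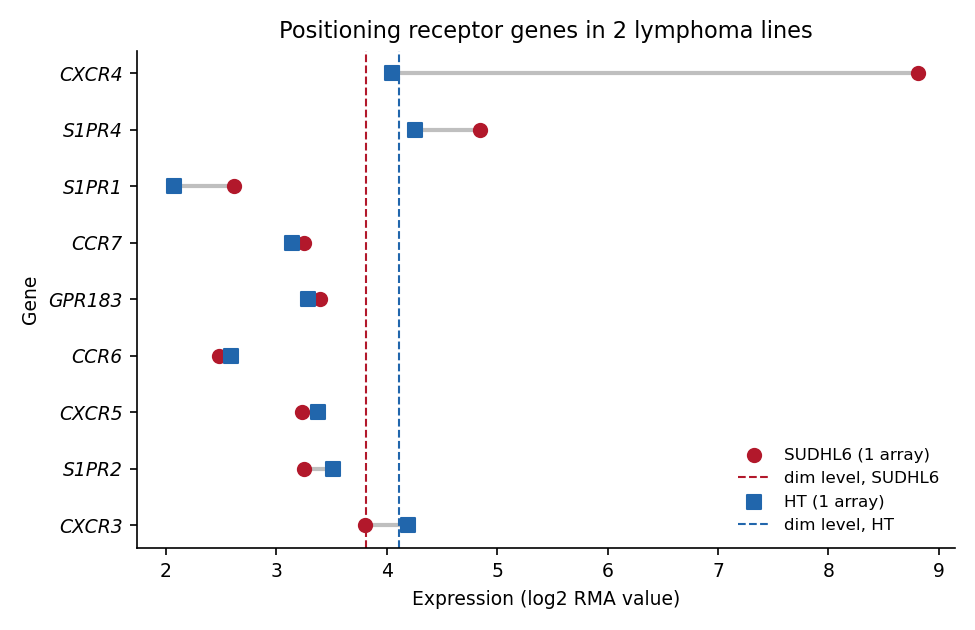
Log2 RMA values of the 9 receptor genes (horizontal axis) in SUDHL6 (red circles) and HT (blue squares), 1 array each, ordered by difference, with the dim level of each line as a dashed line. CXCR4 at 8.81 in SUDHL6 stands apart, and 6 of the genes lie to the left of both dim levels.

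The other chemokine receptor genes lay near or below the dim level. CXCR5, the CXCL13 receptor of follicular B cells, stood at 3.23 in SUDHL6 and 3.38 in HT. CCR7, the receptor for CCL19 and CCL21, stood at 3.25 and 3.14. CXCR3, which binds interferon-induced CXCL9, CXCL10 and CXCL11 and is found on memory B cells, stood at 3.80 and 4.19, the HT value 0.08 above its dim level and the SUDHL6 value 0.01 below. The log2 differences of these 3 genes were -0.15, 0.11 and -0.39, all inside the range of the olfactory receptor genes. Being dim on this array is no proof that a gene was silent.

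CCR6, the receptor for CCL20, gave a different picture in its 2 probe sets. Its own probe set stood at 2.48 in SUDHL6 and 2.59 in HT, below the dim level. A second probe set, which the annotation assigns to CCR6 and its neighbour CEP43 together, stood at 5.997 and 6.40. That probe set reached the dim level in both lines, and its difference was -0.41. Which of the 2 genes gave the signal of the shared probe set was not tested.

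Of the sphingosine 1-phosphate receptor genes, S1PR4 reached the dim level in both lines. S1PR4, a receptor mostly of blood and lymphoid cells, was at 4.84 in SUDHL6 against 4.26 in HT. The difference of 0.58 was under the size counted as different. S1PR1, the egress receptor, stood at 2.62 and 2.08, and S1PR2, the confinement receptor, at 3.25 and 3.51, both below the dim level in each line. GPR183, the receptor for oxysterols, stood at 3.39 and 3.28. S1PR1 (0.54) and S1PR4 (0.58) had the next highest differences after CXCR4, and both lay within the range of the olfactory receptor genes. Since S1PR1 was dim in each line, its direction is not established.

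Across the set, 3 of the 9 genes (33.3%), CXCR4, CXCR3 and S1PR4, reached the dim level in the brighter line, beside 66.1% of all genes. The other 6 (66.7%) were below the dim level in both lines, beside 32.9% of all genes. These 6 ran from 2.48 to 3.39 in SUDHL6 and from 2.08 to 3.51 in HT. The median difference of the 9 genes was 0.11, beside -0.04 over all genes, and 5 of the genes were numerically higher in SUDHL6 and 4 in HT. Leaving out CXCR4, the 8 remaining differences ran from -0.39 to 0.58 with a median of 0.00.

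The regions before the start sites of these genes differed widely in CpG content. Promoters bound by PRC2 in mammals are often rich in CpG. RefSeq start sites of assembly GRCh38.p14 were found for 9 of the 10 genes, P2RY8 included, in 14 windows of 250 bases; CCR7 was not matched. The 34959 windows of all genes had a median of 11 CpG dinucleotides, and 5 of the 14 windows lay above it. The 4 windows printed here, from CXCR4, S1PR2, S1PR4 and GPR183, show the gene that differed beside 2 sphingosine 1-phosphate receptor genes and the gene whose window was lowest in G+C. Capitals mark CpG dinucleotides, and each is read 5′ to 3′ along the gene's strand.
CXCR4, chr2:136118150-136118399, minus strand: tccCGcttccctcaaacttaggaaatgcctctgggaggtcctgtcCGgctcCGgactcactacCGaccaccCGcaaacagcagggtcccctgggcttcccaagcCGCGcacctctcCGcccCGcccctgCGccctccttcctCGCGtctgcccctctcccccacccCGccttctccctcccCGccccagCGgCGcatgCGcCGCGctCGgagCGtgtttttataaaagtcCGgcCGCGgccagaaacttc
S1PR2, chr19:10231332-10231581, minus strand: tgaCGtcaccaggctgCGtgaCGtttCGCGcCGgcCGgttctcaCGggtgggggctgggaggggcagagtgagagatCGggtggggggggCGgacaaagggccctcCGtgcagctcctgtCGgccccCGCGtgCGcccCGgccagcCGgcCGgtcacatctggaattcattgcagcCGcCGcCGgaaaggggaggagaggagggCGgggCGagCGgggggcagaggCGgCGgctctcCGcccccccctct
S1PR4, chr19:3178519-3178768, plus strand: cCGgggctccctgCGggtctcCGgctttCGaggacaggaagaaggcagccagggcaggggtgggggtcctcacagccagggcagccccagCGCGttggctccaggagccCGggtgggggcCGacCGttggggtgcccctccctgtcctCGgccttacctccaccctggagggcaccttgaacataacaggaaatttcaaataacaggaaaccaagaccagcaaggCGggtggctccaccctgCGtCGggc
GPR183, chr13:99307400-99307649, minus strand: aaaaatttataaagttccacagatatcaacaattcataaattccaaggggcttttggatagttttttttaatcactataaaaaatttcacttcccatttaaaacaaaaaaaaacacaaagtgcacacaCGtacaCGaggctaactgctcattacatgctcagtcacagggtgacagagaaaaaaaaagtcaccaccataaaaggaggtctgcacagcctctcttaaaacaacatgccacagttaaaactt

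CXCR4 has 3 such windows, with 24, 12 and 8 CpG dinucleotides, and the first is printed. S1PR2 had the most of the set, 27, with 74.0% G+C. S1PR1 had 18, S1PR4 had 13 and GPR183 had 2, the last with 34.4% G+C. Both strands were searched for CANNTG (E-box), GTAAACA (a FOXO motif) and CACCC (a KLF motif). CANNTG was in 8 of the 14 windows, beside 61.8% of all windows, CACCC in 10, beside 54.8%, and GTAAACA in 0, beside 2.98%. S1PR4 held CACCC 6 times, the most of any window of the set. The windows are a description, since no binding or methylation was measured.

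**Figure D2:**
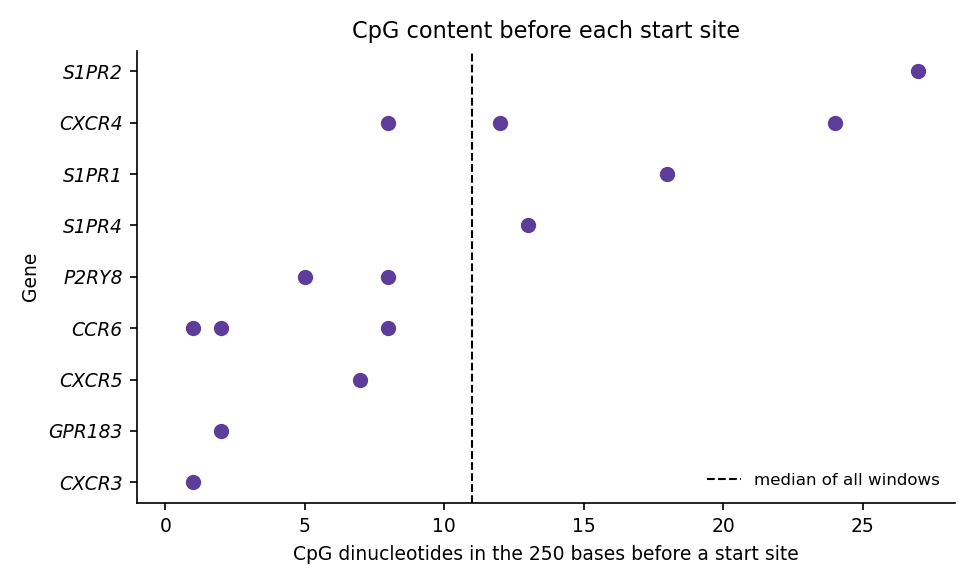
Number of CpG dinucleotides in the 250 bases before each RefSeq start site (horizontal axis) for 9 of the receptor genes, 1 point per window, with the median of all windows (11) as a dashed line. S1PR2 at 27 and the richest CXCR4 window at 24 are to the far right, and CXCR3 and a CCR6 window, both at 1, are to the far left.

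Of the 10 nearest genes with a value around CXCR4 on chromosome 2, 6 reached the dim level and 1 was counted as different, beside 8.12% of all genes. Their median difference was 0.64, beside -0.04 over all genes, with 8 numerically higher in SUDHL6 and 2, MGAT5 (-0.33) and HNMT (-0.16), lower. The 1 counted was the helicase gene ZRANB3, at 5.75 in SUDHL6 and 4.49 in HT, 2.39-fold higher. MCM6, a subunit of the replicative helicase, stood at 8.38 and 7.58, and CCNT2, a cyclin of transcription elongation, at 7.33 and 6.41; these genes, MGAT5 and HNMT were chosen after their values were seen. With the neighbours' median subtracted, the CXCR4 difference was 4.12. The neighbours of the other 8 receptor genes had medians between -0.32 (CXCR5, 9 of 10 below 0 and 2 counted as higher in HT) and 0.09 (CXCR3).

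**Figure D3:**
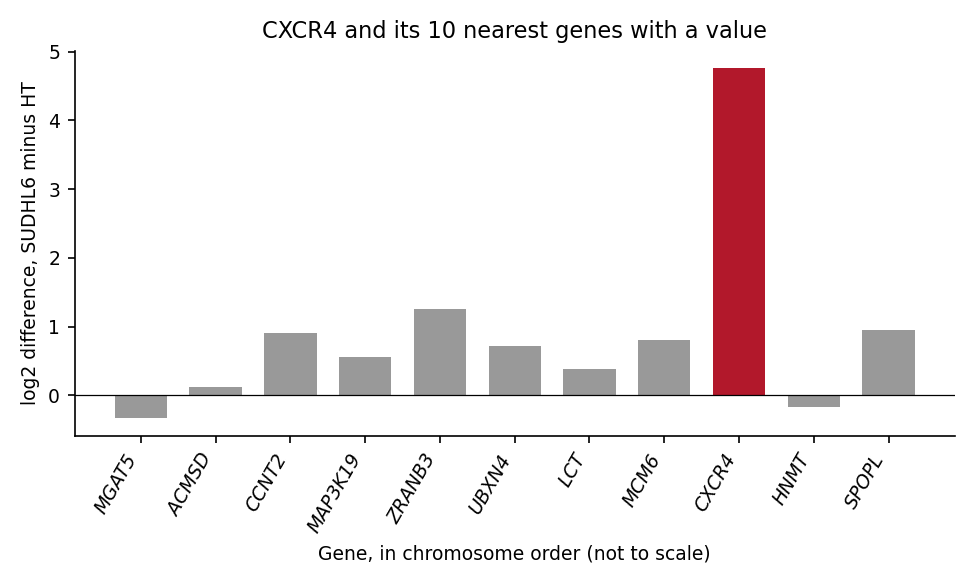
Log2 difference, SUDHL6 minus HT (vertical axis), of CXCR4 (red) and its 10 nearest genes with a value (grey), in chromosome order, 1 array per line. CXCR4 at 4.76 stands above ZRANB3, the highest neighbour, at 1.26.

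Chemokine ligand genes were below the dim level with 1 exception. All 8 had a value, and CXCL12, the CXCR4 ligand, stood at 2.23 in SUDHL6 and 2.43 in HT, while CXCL13 stood at 1.42 and 1.83. CXCL11, a CXCR3 ligand, stood at 2.09 and 4.49, counted as higher in HT, with a difference under 1 when the SUDHL6 value was raised to the dim level. Of 13 genes that make, break down or carry the lipid and metabolite ligands, 9 had a value and 6 reached the dim level. SGPL1, the lyase that degrades sphingosine 1-phosphate, was 2.82-fold higher in HT, at 8.63 against 7.14, and 0 were counted as higher in SUDHL6. The SGPL1 call was lost at a difference of at least 1.5, and the count for HT was 2 at a fold of at least 1.5. Counted shares were 12.5% of the chemokine ligands and 11.1% of the ligand enzymes and carriers, beside 8.12% of all genes. The median difference was 0.03 for the chemokine ligands and -0.04 for the ligand enzymes and carriers.

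Of the related receptor genes, those for other chemokine receptors were mostly dim as well. Of 13 measured genes for other chemokine receptors, 2 reached the dim level, CCR10 (4.93 in SUDHL6 and 5.19 in HT) and ACKR1 (3.91 and 3.49), and 0 were counted as different. CCRL2 stood at 3.05 and 4.07, the HT value 0.05 under the dim level. With that level at the 90th percentile, 1 gene of the list was counted as higher in HT. ACKR3, an atypical receptor that also binds CXCL12, stood at 2.20 and 3.54, below the dim level. Of 14 measured genes for other lipid and nucleotide receptors, 8 reached the dim level in the brighter line. Of the 14, 2 were higher in SUDHL6 and 1 in HT, beside 3.5% and 4.62% of all genes. GPR65, a proton-sensing receptor gene, was 2.42-fold higher in SUDHL6 (6.59 against 5.32). The lysophosphatidylserine receptor genes GPR174 and P2RY10 differed in opposite directions: GPR174 was 2.19-fold higher in SUDHL6 (5.76 against 4.63), and P2RY10 was 2.44-fold higher in HT (5.43 against 4.14). The P2RY10 call was lost with the neighbours' median subtracted, and all 3 calls were lost at a difference of at least 1.5. S1PR5, a further sphingosine 1-phosphate receptor gene, stood at 7.10 and 6.53, above the dim level in both lines. The median difference was -0.19 for the chemokine receptors and 0.20 for the lipid and nucleotide receptors.

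Genes that couple or silence the receptors were nearly all above the dim level, 22 of 24 with a value. Of these, 2 were higher in SUDHL6, 3 in HT and 17 differed by less than 1, a share of 20.8% of the 24 counted as different, beside 8.12% of all genes and 12.3% of those reaching the dim level. The median of the 24 was 0.04, and with neighbours' medians subtracted the count for HT was 1. At a difference of at least 1.5, the count was 1 for SUDHL6 and 1 for HT. GNG2, a G protein gamma subunit gene, was 10.8-fold higher in HT, at 8.59 against 5.16. GNAI3, an inhibitory alpha subunit gene, was 2.21-fold higher in HT, and GRK5, a kinase that desensitises receptors, at least 2.07-fold. RGS2 and RGS1, which shorten G protein signals, were higher in SUDHL6, RGS2 by 2.75-fold (9.03 against 7.57) and RGS1 by at least 1.83-fold (4.99 against 2.43). The RGS1 difference was under 1 once its HT value was lifted to the dim level. GNA13 and ARHGEF1, which act below S1PR2 and P2RY8, stood at 8.99 and 9.07 and at 5.16 and 4.88 in SUDHL6 and HT, above the dim level in both lines.

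Values were found for 21 cell motility genes, of which 20 reached the dim level, 3 were higher in SUDHL6 and 0 in HT, with a median difference of 0.15. These 14.3% stand beside 8.12% of all genes and 12.3% of those reaching the dim level. The counts were 5 and 3 at a fold of at least 1.5, and the count for HT was 1 with neighbours' medians subtracted. DOCK8, an exchange factor for CDC42, was 5.37-fold higher in SUDHL6, at 7.90 against 5.48. ELMO1, a partner of DOCK proteins in RAC activation, was 2.88-fold higher and TIAM1, a RAC exchange factor, 2.61-fold. Among 10 adhesion and homing genes with a value, ITGB1, the beta1 integrin gene, was 13.4-fold higher in HT and ITGAL 2.5-fold higher in SUDHL6. Their share of the list, 20%, compares with 8.12% over all genes and 12.3% among those at or above the dim level. The ITGAL call was lost at a difference of at least 1.5. At a fold of at least 1.5, the count was 2 for SUDHL6 and 2 for HT. The 10 had a median difference of 0.12. LUM and DCN, above, were higher in HT as ITGB1 was. They were the only 2 of the 10 markers of their list counted as different. Another 2 reached the dim level with a difference under 1, and 5 of the 10 differences were above 0. The part of such cells or genes in the ITGB1 difference was not tested.

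Of 17 transcription factor genes with a value, chosen as regulators of these receptors, 2 were higher in SUDHL6 (BACH2 and IRF4), 2 in HT (TCF4 and MEF2C) and 11 reached the dim level with a difference under 1. These 23.5% stand beside 8.12% of all genes and 12.3% of those reaching the dim level. The median difference of the 17 was -0.07, and the count for HT was 4 at a fold of at least 1.5. BACH2 was at least 7.37-fold and IRF4 at least 5.79-fold higher in SUDHL6. TCF4 was at least 28.0-fold and MEF2C 18.4-fold higher in HT. FOXO1, which promotes CXCR4 expression in the dark zone, stood at 6.66 in both lines; its activity was not measured. KLF2, which promotes S1PR1 expression, stood at 5.42 in SUDHL6 and 5.88 in HT.

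For the germinal centre zones, all 12 measured markers reached the dim level, 5 (41.7%) were higher in SUDHL6 by at least 1, beside 3.5% of all genes, and 0 were higher in HT. Among genes that reached the dim level, 12.3% were counted in either direction, and the B cell markers also gave 41.7%, in both directions. CXCR4 itself is 1 of the 5, and the count was 2 at a difference of at least 1.5 and 9 at a fold of at least 1.5. The dark zone gene POLH, a translesion polymerase, was 2.63-fold higher in SUDHL6 (9.34 against 7.94), and the light zone genes CD83 (4.65-fold) and EGR1 (2.5-fold) were higher too, as was CD38 (2.74-fold). Of the dark zone's cell cycle genes, CCNB1 stood at 9.22 in SUDHL6 and 9.47 in HT, and AURKA at 7.98 and 8.37. Genes of both zones thus stood among the 5, and the list's median was 0.84. The light zone genes CD86 (0.91), CD40 (0.72), NFKBIA (0.77) and MYC (0.62) were numerically higher in SUDHL6, each by less than 1. Over the list, 9 differences were above 0 and 3, those of FOXO1, CCNB1 and AURKA, below. ACKR3, CCRL2, S1PR5, GNAI3, GNA13, ARHGEF1, CXCL12, CXCL13, FOXO1, KLF2, EGR1, CCNB1, AURKA, CD86, CD40, NFKBIA, MYC and the CD3 genes were picked from their lists after their values were seen.

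**Figure D4:**
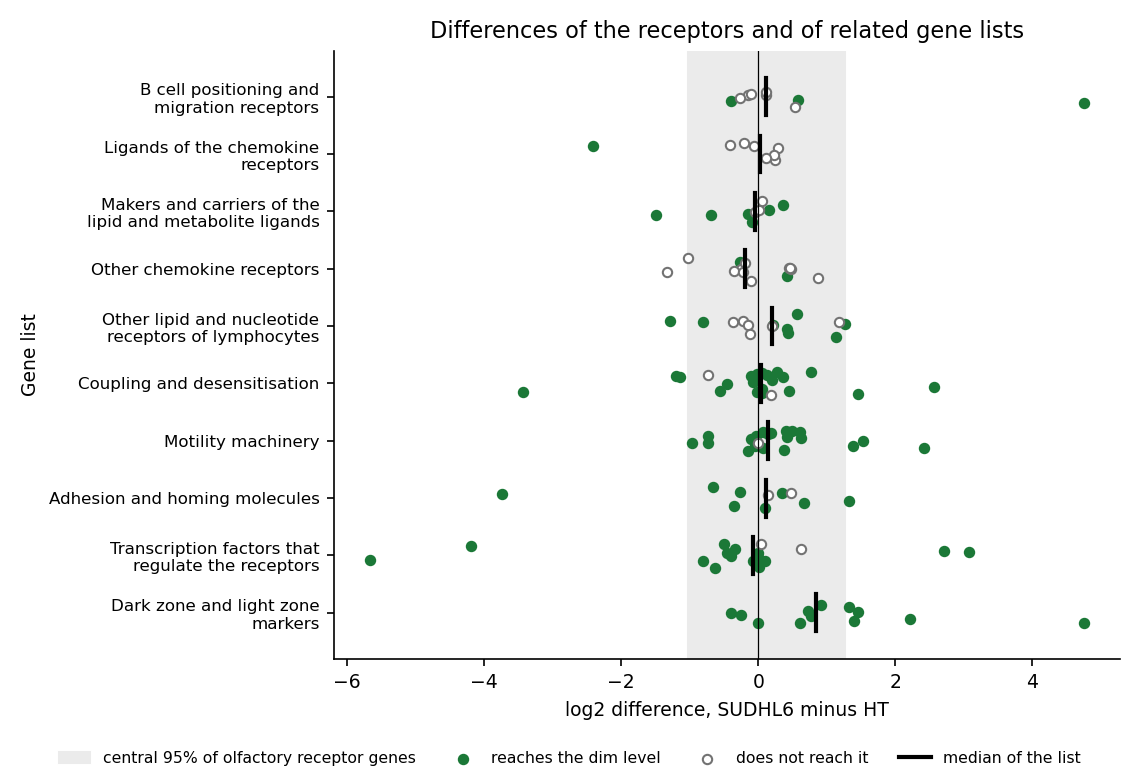
Log2 difference, SUDHL6 minus HT (horizontal axis), of each gene of the receptor set and of 9 related lists (rows), with genes reaching the dim level filled, other genes open, list medians as black bars and the central 95% of olfactory receptor genes shaded. CXCR4 at 4.76 is the right-most point of the receptor row, and the other 8 receptors lie inside the shading.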

How the data were processed

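Gene expression was measured on 1 array of each line. The authors deposited log2 expression values per probe set, made by RMA with the Affymetrix Expression Console, per the submitters' processing notes. Versions, settings and the genome build behind the probe sets were not stated in the labels used here. RMA compresses small differences between dim genes. The table held 22011 probe sets, from 0.333 to 13.99 in SUDHL6 and from 0.385 to 13.97 in HT, and the number of arrays limits the precision.

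GEO's platform annotation, whose symbols can be old, named 1 gene for 14432 probe sets, several for 2408 and did not list 5171. Symbols were updated by gene number to RefSeq (GRCh38.p14), which matched 14404 of the 14432. A gene with several probe sets of its own took the one with the highest mean. Folds are antilogs of log2 differences. They were taken against the dim level, and written "at least", for a dimmer value under that level. The dim level comes from 1 gene family. Neighbours are the 10 nearest genes with a value.

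Members and lists were chosen with earlier results of these data known. The text names all members, up to 4 genes of each list with the largest difference counted, or the 2 with the highest mean, and the 2 genes on either side of CXCR4 in the order of differences. The counting rule was run on simulated data, with differences planted only in genes clearly above the dim level. That run does not cover dim genes and measures no array error. Of the marker lists with 0 genes counted as different, the named genes are given for T cells and epithelial cells alone. Alternatives covered the dim level, scaling, probe set choice, threshold, raised values and neighbours. The comparison of receptor protein sequences was not made here. Python 3.11.15, pandas 2.3.3 and numpy 2.4.6 were used.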

Additional observations from a re-analysis of the deposited data

How the results depend on the processing

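The CXCR4 difference lay between 4.12 and 4.88 in the 12 alternatives, all with SUDHL6 higher. Alternatives for the dim level's percentile and the threshold do not enter that difference. Those for probe set choice could not change it either, as CXCR4 has a single probe set. The 4.12, with the median of CXCR4's chromosome neighbours subtracted, moved by more than 0.63. That is the SD of the olfactory receptor differences, OR13A1 at 4.61 included, used as a yardstick because no replicates exist. CXCR4 was the only receptor gene counted as different in the main setting, and 1 member was counted as higher in SUDHL6 and 0 in HT in each alternative. S1PR4, 1.499-fold higher in SUDHL6, fell just short of the fold of at least 1.5. The number of members reaching the dim level was 2 with that level at the 99th percentile, without CXCR3, and 4 when shared probe sets were admitted, with CCR6. The median of the members ran from -0.30 to 0.18, the lowest with values raised to the dim level, which sets each doubly dim gene to -0.30. The sign of CCR7, GPR183 and S1PR1 turned with values raised, to -0.30, and that of CXCR5 with neighbours subtracted, to 0.18. Over the whole table, 275 genes exceeded HT in SUDHL6 and 285 the reverse at a difference of at least 1.5, and 1058 and 1517 at a fold of at least 1.5, against 498 and 657 in the main setting. Their order turned after quantile normalization (576 and 568) and loess (584 and 562). Over the lists, 22 of 324 recomputed counts and medians moved, among them the CXCL11 call, lost with the dim level at the 99th percentile. Medians could not move with the dim level's percentile or the threshold. No paired analysis was possible because each line has 1 array. With no detection calls and a single array per line, little can be said of values below the dim level.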
